A study of Mus musculus with 18 samples.

Results

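Prostaglandins and leukotrienes are lipid signals that macrophages make from arachidonic acid. The 9 genes described here act in that path or in the breakdown of its products: Pla2g4a, Ptgs1, Ptgs2, Ptges, Ptges2, Tbxas1, Alox5, Alox5ap and Hpgd. They were chosen by symbol, and every array feature annotated with one of these symbols was averaged per gene. Of the 9 genes, 8 had a feature, among 22485 genes measured in all, and these 8 were covered by 19 of 44397 features. Ptgs1 was not analysed here. Ptgs2 had 10 features, Ptges and Hpgd had 2 each, and the other 5 genes had 1 each.

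The arrays were two-colour Agilent arrays hybridised with RNA of cultured mouse macrophages, grown for 7 days in 10 ng/ml M-CSF from bone marrow of mice aged 8 to 10 weeks. Of the 18 arrays, 5 held Nrf2-/- cells given heme-albumin and then LPS (bacterial lipopolysaccharide, an inflammatory stimulus), 4 held Nrf2-/- cells given LPS, 3 held Nrf2+/+ cells given heme-albumin and then LPS, 3 held Nrf2+/+ cells given LPS, and 3 held Nrf2+/+ cells given albumin without heme. Heme-albumin was used at 200 µM for 4 h, LPS at 10 ng/ml for 4 h, and albumin for 4 h. Each sample was labelled with Cy5 and set against a Cy3-labelled reference of untreated macrophages, and the sources used here do not give the genotype of that reference. No Nrf2-/- group without LPS was among the samples. Since albumin is not named for the cells given LPS alone, those groups may differ from the albumin group in albumin as well as in LPS. They may likewise differ from the heme-albumin groups in albumin as well as in heme. A heme effect below is therefore the difference between heme-albumin with LPS and LPS alone, in which heme and its albumin cannot be told apart. Every value below is a log2 ratio of the sample to this reference, on which 0 means equal and 1 means a doubling, and a difference between groups is a difference of mean log2 ratios. Replicates carry the letters a to e.

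Arachidonic acid is cut from membrane phospholipid by cytosolic phospholipase A2 (Pla2g4a). Cyclooxygenases (constitutive Ptgs1 and inducible Ptgs2) turn it into prostaglandin H2, from which terminal enzymes such as Ptges, Ptges2 and Tbxas1 make individual prostanoids. Alox5, presented with its substrate by Alox5ap, opens the branch to leukotrienes, and Hpgd begins the breakdown of prostaglandins. Inflammatory macrophages are known to induce Ptgs2 and Ptges together and to release prostaglandin E2. Nrf2, encoded by Nfe2l2, is a transcription factor of the response to oxidants and electrophiles, and heme is among the agents known to activate it.

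The bases before the annotated start are shown for the inducible cyclooxygenase and for both prostaglandin E synthases, since LPS raised Ptgs2 and Ptges while Ptges2 fell with heme-albumin in Nrf2+/+ cells. They are RefSeq promoters on build GRCm38.p6, 250 bases before the start, read 5′ to 3′ on the strand of the gene, at chr1:150099781-150100030 (plus strand) for Ptgs2, chr2:30903298-30903547 (minus strand) for Ptges and chr2:32395640-32395889 (plus strand) for Ptges2. Capitals mark matches to the motifs named in the next paragraph.
Ptgs2: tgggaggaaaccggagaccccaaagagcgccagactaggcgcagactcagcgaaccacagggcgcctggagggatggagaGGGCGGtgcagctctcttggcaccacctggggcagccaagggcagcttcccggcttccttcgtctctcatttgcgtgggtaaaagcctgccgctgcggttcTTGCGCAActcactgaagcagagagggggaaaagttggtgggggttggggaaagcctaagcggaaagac
Ptges: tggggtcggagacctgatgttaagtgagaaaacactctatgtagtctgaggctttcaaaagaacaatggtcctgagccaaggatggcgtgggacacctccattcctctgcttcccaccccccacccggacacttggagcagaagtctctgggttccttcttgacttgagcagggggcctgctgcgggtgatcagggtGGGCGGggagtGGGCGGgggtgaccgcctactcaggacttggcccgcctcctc
Ptges2: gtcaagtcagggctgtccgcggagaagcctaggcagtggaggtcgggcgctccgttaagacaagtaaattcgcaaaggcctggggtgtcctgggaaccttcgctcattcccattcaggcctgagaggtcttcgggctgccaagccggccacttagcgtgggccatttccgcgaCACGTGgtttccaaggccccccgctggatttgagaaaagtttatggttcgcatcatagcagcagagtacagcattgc

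Of the 9 genes, 8 had a promoter in the RefSeq table, with 9 promoters in all because Pla2g4a had a pair of starts; Alox5ap had no entry. The search covered 300 bases, that is 250 before and 50 after the start, on both strands. It used the CRE core TGACG, the E-box CACGTG, the C/EBP site TTGCGCAA, the GC box GGGCGG, the antioxidant response element TGACNNNGC, the AP-1 site TGANTCA and the NF-kB site by its usual consensus. In Ptgs2 the search found a GC box at -170 to -165 and the C/EBP site at -69 to -62, and after the start a CRE core at 14 to 18 that overlaps an E-box at 17 to 22. Among all 32851 promoters of the table, the C/EBP letters occurred in 0.183%, the E-box in 7.15%, the CRE core in 20.8% and the GC box in 35.7%. Ptges held GC boxes at -53 to -48 and -42 to -37, and Ptges2 held an E-box at -77 to -72. Tbxas1 held an AP-1 site at -61 to -55 (7.81% of all promoters), and Alox5 and Hpgd each held a GC box. The antioxidant response element (12.4% of all promoters) and the NF-kB site (8.46%) had no match in these windows of the 8 genes. A match is a match of letters in this window and nothing more.

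The gene deleted in the knockout, Nfe2l2, was listed at exactly 0 on all 9 Nrf2-/- arrays. Its log2 ratios were 0.13, 1.0 and 0.80 on Nrf2+/+ heme+LPS arrays a to c, -0.59, -0.45 and 0.16 on Nrf2+/+ LPS arrays, and -0.22, 0 and 0 on albumin arrays. A deposited 0 therefore also occurred in Nrf2+/+ cells, and the sources do not say what it stands for. Between 17.9% and 48.8% of features per array were listed at exactly 0, most on the arrays lettered a of the LPS-treated groups and on Nrf2+/+ heme+LPS array c. Of the genes described here only Ptgs2 held such zeros, in 3.33% of its feature values. For the others, taking zeros as missing left the differences unchanged, and only the test results could move. The deposited table gives ratios without intensities, so how close a channel lay to background is unknown, and the number of arrays limits the precision.

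LPS moved several steps of the path in Nrf2+/+ cells. Compared with albumin arrays, the inducible cyclooxygenase Ptgs2, the prostaglandin E synthase Ptges and the phospholipase Pla2g4a rose, and the lipoxygenase partner Alox5ap fell. These were 4 of the 8 genes measured, 3 higher and 1 lower, where 28.6% of all genes were called, 12.3% higher and 16.3% lower (limma, adjusted p under 0.05 over all 22485 genes, two-sided). The median difference over the 8 genes was 0.01, against 0 over all genes. On the individual arrays all 8 genes separated LPS from albumin without overlap, which 47.2% of all genes did.

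Heme-albumin before LPS called 0 of the 8 genes in Nrf2-/- cells relative to LPS (1 gene, Hpgd, had an unadjusted limma p under 0.05), where 6.77% of all genes were called, 4.1% higher and 2.67% lower. In Nrf2+/+ cells it changed 2 of 8, as Alox5ap rose and Ptges2 fell, where 14.7% of all genes were called, 8.34% higher and 6.35% lower. The test of the difference between these heme effects called 0 of 8 (2 genes, Alox5ap and Ptges2, had an unadjusted p under 0.05), where 0.947% of all genes were called. Between the genotypes, LPS alone called 0 of 8 (0 at an unadjusted p under 0.05), where 0.00445% of all genes were called, which is 1 gene. After heme-albumin and LPS the Nrf2-/- cells differed from Nrf2+/+ cells in 3 of 8 genes, with Pla2g4a and Alox5ap lower and Ptges2 higher, where 5.29% of all genes were called, 2.13% higher and 3.16% lower. Nrf2+/+ heme+LPS arrays were also compared with albumin arrays, which called 5 of 8 (3 higher, 2 lower), where 27.3% of all genes were called, 12.9% higher and 14.4% lower. Without Nrf2+/+ heme+LPS array a this last count was 3. The count of 3 for the genotypes after heme-albumin and LPS was 1 without Nrf2+/+ heme+LPS array c or without Nrf2-/- heme+LPS array c, d or e. Same-letter arrays of these 2 groups deviated together, but the reported fit used no block for the letter. With the replicate letter as a block, limma called 0 genes higher and 3 lower. Ptges2 was then lost (adjusted p = 0.0939) and Tbxas1 was called (adjusted p = 0.028). Several of these comparisons share groups, so their calls are not independent of each other.

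Counted by single arrays, groups lay apart without overlap for fewer genes outside the albumin comparisons. Nrf2+/+ heme+LPS arrays were separate from LPS arrays in 3 of 8 genes (Tbxas1 and Alox5ap higher, Ptges2 lower), against 24.2% of all genes, and from albumin arrays in 6 of 8 (Ptgs2, Ptges and Pla2g4a higher, Ptges2, Alox5 and Hpgd lower), against 43.7%. Nrf2-/- heme+LPS arrays were separate from Nrf2-/- LPS arrays in 0 of 8, against 7.64% of all genes, and from Nrf2+/+ heme+LPS arrays in 3 of 8 (Pla2g4a, Tbxas1 and Alox5ap, all lower), against 7.79%. Nrf2-/- and Nrf2+/+ LPS arrays were separate in 1 of 8, Alox5, lower in Nrf2-/- cells, against 3.02% of all genes.

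**Figure D1:**
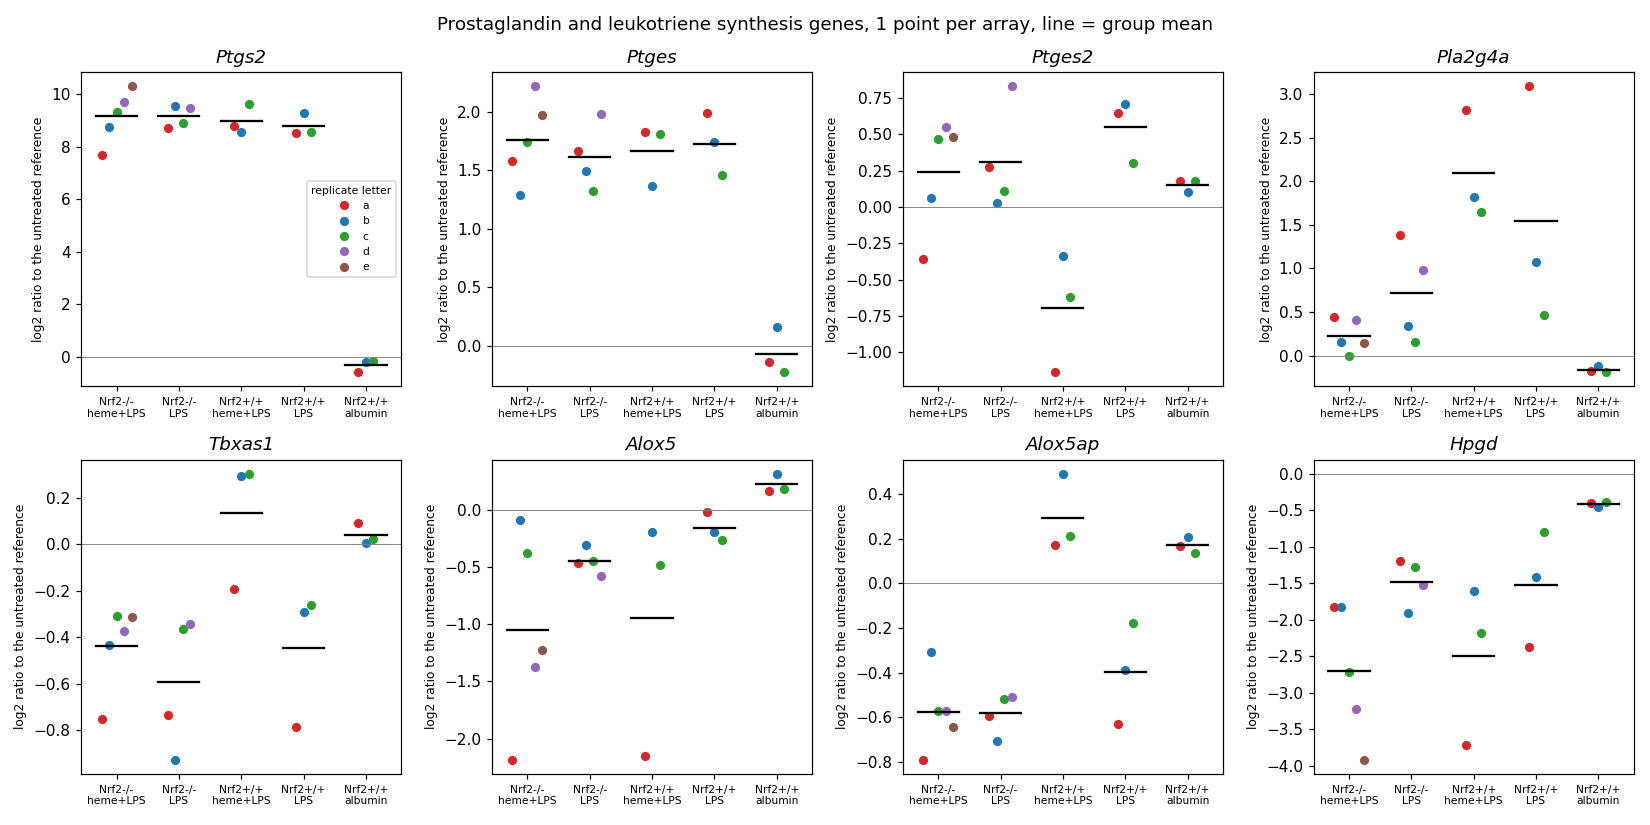
Log2 ratio to the untreated reference (vertical axis) for each of the 8 genes, with 1 point per array coloured by replicate letter, a line at each group mean, and groups from Nrf2-/- heme+LPS on the left to Nrf2+/+ albumin on the right. Ptgs2 lies between 7.69 and 10.30 on every LPS-treated array, while Pla2g4a, Tbxas1 and Alox5ap are lower on every Nrf2-/- heme+LPS array than on every Nrf2+/+ heme+LPS array.

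Pla2g4a, which releases arachidonic acid, had its highest group means in Nrf2+/+ cells that had LPS. Nrf2-/- heme+LPS arrays a to e had 0.45, 0.15, 0.00, 0.41 and 0.14, and Nrf2-/- LPS arrays a to d had 1.38, 0.34, 0.15 and 0.98. In Nrf2+/+ cells it was 2.82, 1.81 and 1.65 on heme+LPS arrays a to c, 3.09, 1.08 and 0.46 on LPS arrays, and -0.18, -0.12 and -0.19 on albumin arrays. Array a was the highest of each LPS-treated group, and the Nrf2-/- heme+LPS arrays all lay below all Nrf2+/+ heme+LPS arrays.

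With LPS in Nrf2+/+ cells the Pla2g4a mean stood 1.71 ± 0.52 above albumin (SE, limma adjusted p = 0.0229, 3.26-fold). It was lost without several single arrays: without Nrf2+/+ LPS array a the difference was 0.93 (adjusted p = 0.0857), and without albumin array a, b or c it was 1.70, 1.73 or 1.69 (adjusted p = 0.0576, 0.0539 and 0.0589). It was also lost with exact zeros taken as missing (adjusted p = 0.0773) and in a fit of the compared groups alone (adjusted p = 0.159). Pla2g4a held no zeros itself, and its difference was unchanged with zeros as missing. Heme+LPS stood 2.26 ± 0.52 above albumin (adjusted p = 0.00465), and this call held without any 1 array (adjusted p up to 0.0254).

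The Nrf2-/- heme effect on Pla2g4a was -0.49 ± 0.43 (adjusted p = 0.685), and it was negative within each of the 4 letters, between -0.94 and -0.16. The heme effect in Nrf2+/+ cells was 0.55 ± 0.52 (adjusted p = 0.652), with 95% limits of -0.56 and 1.67. Without Nrf2+/+ LPS array a it was 1.32 with an adjusted p of 0.0327, so this single array decided the call. Within letters, the heme effect was -0.27, 0.74 and 1.19 for a, b and c. The 2 heme effects differed by -1.04 ± 0.67 (adjusted p = 0.854), which did not pass the test. After heme-albumin and LPS, Nrf2-/- cells stood 1.86 lower than Nrf2+/+ cells on the log2 scale, as a difference of -1.86 ± 0.47 (adjusted p = 0.0304, 3.64-fold). Within letters a, b and c this genotype difference was -2.37, -1.66 and -1.65. The call was lost without any 1 of Nrf2+/+ heme+LPS arrays a, b and c or of Nrf2-/- heme+LPS arrays c, d and e, with differences between -2.09 and -1.50 and adjusted p up to 0.137. Under LPS alone the genotypes differed by -0.83 ± 0.49 (adjusted p = 1), with limits of -1.87 and 0.22.

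Ptgs2, the inducible cyclooxygenase, had the largest change of the 8 genes. Nrf2-/- heme+LPS arrays a to e had 7.69, 8.76, 9.30, 9.71 and 10.30, and Nrf2-/- LPS arrays a to d had 8.70, 9.53, 8.91 and 9.46. Nrf2+/+ heme+LPS arrays a to c had 8.80, 8.54 and 9.63, Nrf2+/+ LPS arrays had 8.51, 9.30 and 8.56, and albumin arrays had -0.58, -0.19 and -0.16. The LPS-treated groups overlapped each other and lay far above albumin.

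LPS raised Ptgs2 by 9.10 ± 0.52 over albumin in Nrf2+/+ cells (limma adjusted p = 3.89e-08), and heme-albumin with LPS by 9.30 ± 0.52 (adjusted p = 3.95e-08). Each of its 10 features was called for LPS against albumin, with differences from 8.25 to 9.89, where 25.4% of all features were called. These features measured the same gene on the same arrays and are not independent of each other. Of its 30 feature values on albumin arrays, 6 were listed at exactly 0 and the whole set ran from -1.62 to 1.23, while none of those on other arrays was at 0. With those zeros taken as missing the difference of Ptgs2 between LPS and albumin was 9.19.

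Neither heme-albumin nor genotype was shown to change Ptgs2. The heme effect was 0.00 ± 0.42 in Nrf2-/- cells (adjusted p = 1) and 0.20 ± 0.52 in Nrf2+/+ cells (adjusted p = 0.953). The 95% limits were -0.91 to 0.91 in Nrf2-/- cells and -0.91 to 1.31 in Nrf2+/+ cells, so changes of a size within these limits remain possible. The genotype difference was 0.16 ± 0.46 after heme-albumin and LPS (adjusted p = 0.952), or -0.26 under quantile normalization, and 0.36 ± 0.48 after LPS (adjusted p = 1). By letter the heme effect ran from -1.02 to 0.39 in Nrf2-/- cells and from -0.76 to 1.07 in Nrf2+/+ cells, with both signs in each genotype.

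The genes whose pattern over the 18 arrays was most like that of Ptgs2, among 13877 genes, were Socs3 (Pearson's r = 0.99), Il6 (0.99) and Il1b (0.99). Socs3 is an inhibitor of cytokine signalling, and Il6 and Il1b encode inflammatory cytokines. These correlations describe arrays that share one reference and that fall into albumin and LPS-treated arrays, and they were not computed within the LPS-treated arrays.

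Ptges, the inducible microsomal prostaglandin E synthase that works with Ptgs2, rose with LPS. Nrf2-/- arrays had 1.58, 1.29, 1.74, 2.22 and 1.97 after heme+LPS (a to e) and 1.66, 1.49, 1.32 and 1.98 after LPS (a to d). Nrf2+/+ heme+LPS arrays a to c had 1.82, 1.37 and 1.81, Nrf2+/+ LPS arrays had 1.99, 1.74 and 1.46, and albumin arrays had -0.14, 0.16 and -0.23. The difference between LPS and albumin was 1.80 ± 0.23 (limma adjusted p = 4.49e-05, 3.48-fold), and between heme+LPS and albumin it was 1.74 ± 0.23 (adjusted p = 7.67e-05).

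All 4 LPS-treated groups overlapped for Ptges. The heme effect was 0.14 ± 0.19 in Nrf2-/- cells (adjusted p = 0.826) and -0.06 ± 0.23 in Nrf2+/+ cells (adjusted p = 0.998). The 95% limits in Nrf2+/+ cells were -0.56 and 0.44, and the sign of that effect turned to positive, at 0.23, under quantile normalization. The genotype difference after heme-albumin and LPS was 0.09 ± 0.21 (adjusted p = 0.919), and it was -0.11 under quantile normalization.

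The 2 features of Ptges did not give the same size of change. One of them, feature 35837, rose by 3.17 ± 0.43 with LPS (adjusted p = 9.08e-05 over all features, of which 25.4% were called), while feature 36647 differed by 0.42 ± 0.17 (adjusted p = 0.0928). The mean over features therefore lies between them, and the positions of the features in the transcript were not used here.

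**Figure D2:**
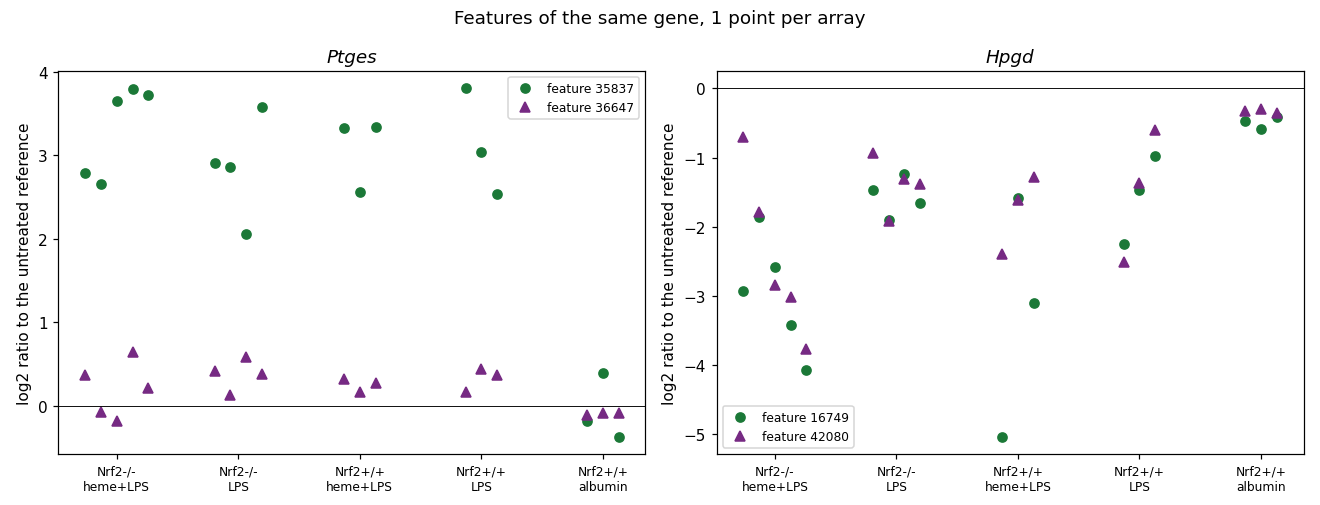
Log2 ratio to the untreated reference (vertical axis) of the single features of Ptges (left) and Hpgd (right), with 1 symbol per feature and array and the groups from Nrf2-/- heme+LPS on the left to Nrf2+/+ albumin on the right. Feature 35837 of Ptges is high on every LPS-treated array while feature 36647 stays near 0, and feature 16749 of Hpgd is the lower one on Nrf2+/+ heme+LPS arrays a and c.

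Ptges2, a membrane-associated enzyme also named as a prostaglandin E synthase, fell with heme-albumin in Nrf2+/+ cells. Nrf2-/- heme+LPS arrays a to e had -0.36, 0.06, 0.47, 0.55 and 0.48, against 0.27, 0.03, 0.11 and 0.83 on Nrf2-/- LPS arrays a to d. It was -1.14, -0.34 and -0.62 on Nrf2+/+ heme+LPS arrays a to c, against 0.65, 0.71 and 0.30 on Nrf2+/+ LPS arrays, without overlap. Albumin arrays had 0.18, 0.10 and 0.18. The heme effect on Ptges2 in Nrf2-/- cells was -0.07 ± 0.21 (adjusted p = 0.976), with limits of -0.53 and 0.39. In Nrf2+/+ cells it was -1.25 ± 0.26 (limma adjusted p = 0.00424, 2.38-fold lower), and it was negative within letters a, b and c, at -1.78, -1.05 and -0.92. In a fit of the compared groups alone the Nrf2+/+ call was lost (adjusted p = 0.0607).

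The difference between the heme effects on Ptges2 was 1.18 ± 0.34, with an unadjusted p of 0.00364 and an adjusted p of 0.166, so a genotype dependence of the heme effect did not pass the test over all genes; with limma's array weights it was 1.34 with an adjusted p of 0.00669.

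Set directly against each other after heme-albumin and LPS, Nrf2-/- cells had 0.94 ± 0.23 more Ptges2 on the log2 scale than Nrf2+/+ cells (adjusted p = 0.0305, 1.91-fold). With the replicate letter as a block the difference was 0.73 with an adjusted p of 0.0939, and the call was lost. It was also lost without any 1 of Nrf2+/+ heme+LPS arrays a and c or Nrf2-/- heme+LPS arrays c, d and e, where the adjusted p reached 0.143. Quantile normalization, zeros as missing, the compared groups alone and leaving out letter a of all LPS-treated groups ended it as well (adjusted p = 0.0569, 0.121, 0.212 and 0.0517). Ptges2 held no zeros itself, and its difference was unchanged with zeros as missing. Nrf2-/- array a, at -0.36, overlapped the Nrf2+/+ heme+LPS arrays. Against albumin, Nrf2+/+ heme+LPS stood at -0.85 ± 0.26 (adjusted p = 0.0254), a call that was lost without any 1 albumin array or without heme+LPS array a, where the difference was -0.63 (adjusted p = 0.114), or with letter a left out of all LPS-treated groups (adjusted p = 0.081). LPS without heme differed from albumin by 0.40 ± 0.26 (adjusted p = 0.298).

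Tbxas1, which makes thromboxane A2 from prostaglandin H2, did not pass the test in any of the 7 comparisons, although its adjusted p came close in 3. Its Nrf2-/- values were -0.75, -0.43, -0.31, -0.37 and -0.31 on heme+LPS arrays a to e and -0.73, -0.93, -0.36 and -0.34 on LPS arrays a to d. Nrf2+/+ heme+LPS arrays a to c had -0.19, 0.29 and 0.30, against -0.79, -0.29 and -0.26 on Nrf2+/+ LPS arrays, without overlap. Albumin arrays had 0.09, 0.01 and 0.03. The Nrf2-/- groups overlapped each other, and the Nrf2-/- heme+LPS arrays lay below all Nrf2+/+ heme+LPS arrays. The heme effect on Tbxas1 was 0.16 ± 0.15 in Nrf2-/- cells (adjusted p = 0.735). In Nrf2+/+ cells it was 0.58 ± 0.19 (limma adjusted p = 0.0535), with 0.59, 0.59 and 0.57 within letters a, b and c. With the replicate letter as a block this Nrf2+/+ effect passed the test (adjusted p = 0.0198), although the letters did not meet the pairing rule for these groups.

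The heme effects on Tbxas1 differed by -0.43 ± 0.24 (adjusted p = 0.786). After heme-albumin and LPS the genotypes differed by -0.57 ± 0.17 (adjusted p = 0.0696), with -0.56, -0.73 and -0.61 within letters a, b and c. With the replicate letter as a block this difference was -0.66 and passed the test (adjusted p = 0.028), as it did without Nrf2+/+ heme+LPS array a (-0.74, adjusted p = 0.028). LPS differed from albumin by -0.49 ± 0.19 (adjusted p = 0.0688), or with an adjusted p of 0.0267 with the block.

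**Figure D3:**
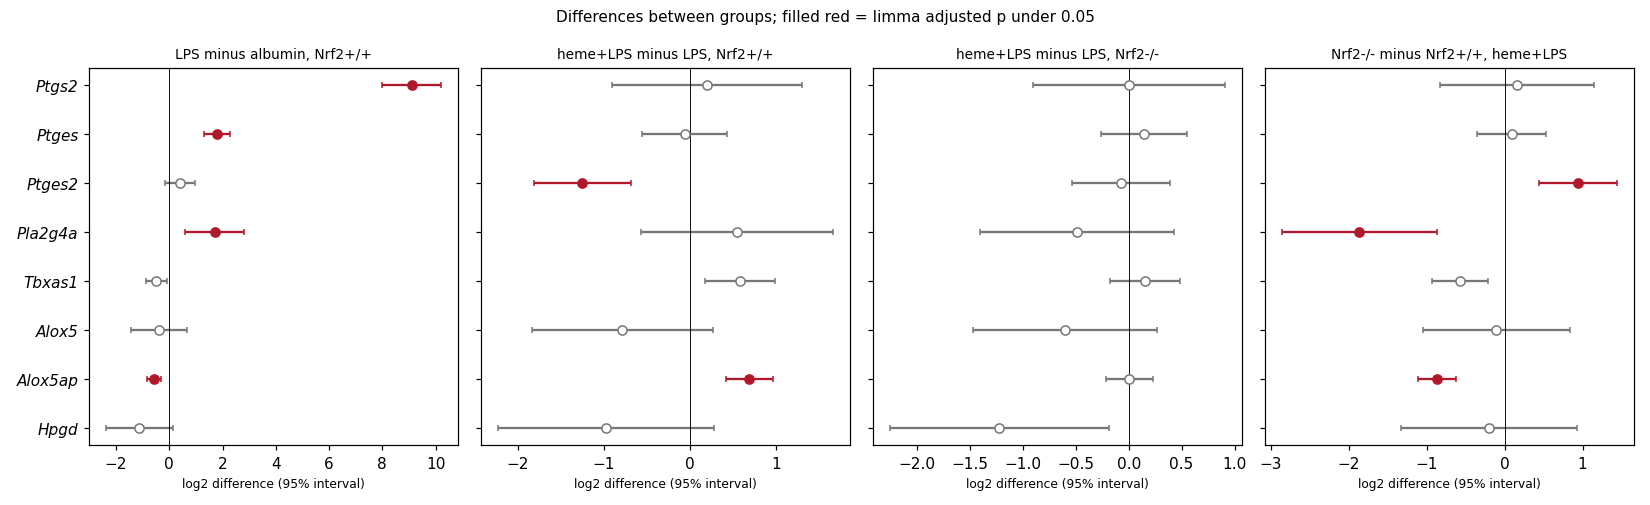
Difference in mean log2 ratio (horizontal axis) with its 95% interval for each gene in 4 comparisons, from LPS minus albumin on the left to Nrf2-/- minus Nrf2+/+ after heme+LPS on the right; filled red points passed limma's adjusted p under 0.05 and the horizontal scales differ. Ptges2 and Alox5ap lie on opposite sides of 0 for heme in Nrf2+/+ cells, and both lie near 0 for heme in Nrf2-/- cells.

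Alox5, the enzyme that starts leukotriene synthesis, was low on some of the heme+LPS arrays. The Nrf2-/- heme+LPS arrays a to e had -2.18, -0.09, -0.38, -1.37 and -1.22, against -0.47, -0.31, -0.45 and -0.58 on Nrf2-/- LPS arrays a to d. On Nrf2+/+ heme+LPS arrays a to c it was -2.15, -0.20 and -0.48, against -0.02, -0.20 and -0.26 on Nrf2+/+ LPS arrays and 0.17, 0.31 and 0.18 on albumin arrays. The lowest heme+LPS array was array a in both genotypes, and arrays b and c overlapped the LPS arrays or lay close to them. Nrf2-/- heme+LPS arrays d and e, at -1.37 and -1.22, also lay below all Nrf2-/- LPS arrays.

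The heme effect on Alox5 was -0.60 ± 0.40 in Nrf2-/- cells (limma adjusted p = 0.547) and -0.78 ± 0.49 in Nrf2+/+ cells (adjusted p = 0.407). By letter it was -1.71, 0.22, 0.07 and -0.79 for a to d in Nrf2-/- cells, and -2.13, 0.00 and -0.22 for a, b and c in Nrf2+/+ cells. The heme+LPS arrays lettered a were also among the arrays with most exact zeros, at 48.8% in Nrf2-/- cells and 46.4% in Nrf2+/+ cells. Nrf2-/- heme+LPS arrays d and e, with Alox5 at -1.37 and -1.22, had 23.9% and 20.9%. The LPS arrays lettered a had 44.3% in Nrf2-/- cells and 45.7% in Nrf2+/+ cells, with Alox5 at -0.47 and -0.02. The part of the zeros in the Alox5 values was not tested. LPS differed from albumin by -0.38 ± 0.49 (adjusted p = 0.645). The 3 LPS arrays nevertheless all lay below the 3 albumin arrays, and in a fit of those groups alone the adjusted p was 0.0242. Heme+LPS differed from albumin by -1.16 ± 0.49 (adjusted p = 0.099), and without Nrf2+/+ heme+LPS array b this was -1.54 (adjusted p = 0.0479).

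Alox5ap, the membrane protein that presents arachidonic acid to Alox5, fell with LPS and stood higher where heme-albumin came first in Nrf2+/+ cells. Its values were -0.79, -0.30, -0.57, -0.57 and -0.64 on Nrf2-/- heme+LPS arrays a to e, and -0.60, -0.70, -0.52 and -0.51 on Nrf2-/- LPS arrays a to d. It was 0.17, 0.49 and 0.21 on Nrf2+/+ heme+LPS arrays a to c, -0.63, -0.39 and -0.18 on Nrf2+/+ LPS arrays, and 0.17, 0.21 and 0.14 on albumin arrays. The Nrf2+/+ LPS arrays lay below both other Nrf2+/+ groups without overlap. LPS differed from albumin by -0.57 ± 0.13 (limma adjusted p = 0.00348), and heme+LPS from LPS by 0.69 ± 0.13 (adjusted p = 0.00164, 1.61-fold). That heme call was lost with zeros taken as missing (adjusted p = 0.0614) and in a fit of the compared groups alone (adjusted p = 0.0788). Alox5ap held no zeros itself, and its difference was unchanged with zeros as missing. With heme-albumin before LPS the difference from albumin was 0.12 ± 0.13 (adjusted p = 0.54), with limits of -0.15 and 0.39.

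On Nrf2-/- arrays Alox5ap was always below the reference. The heme effect was 0.00 ± 0.10 (adjusted p = 1), with limits of -0.22 and 0.23. Within letters it was -0.19, 0.40, -0.06 and -0.06 for a to d in Nrf2-/- cells, against 0.80, 0.88 and 0.39 for a, b and c in Nrf2+/+ cells.

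After heme-albumin and LPS, Nrf2-/- cells stood at -0.87 ± 0.11 for Alox5ap relative to Nrf2+/+ cells (adjusted p = 0.000333, 1.83-fold lower), and every left-out array kept this call, with an adjusted p of at most 0.00263. Under LPS alone the genotype difference was -0.18 ± 0.12 (adjusted p = 1). The test of the difference between the heme effects gave -0.69 ± 0.16, with an unadjusted p of 0.000919 and an adjusted p of 0.0751, just short of the threshold. It passed without Nrf2-/- heme+LPS array b (-0.75, adjusted p = 0.024) and without Nrf2+/+ LPS array c (-0.80, adjusted p = 0.0423), and over all left-out arrays the adjusted p ran from 0.024 to 0.184.

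**Figure D4:**
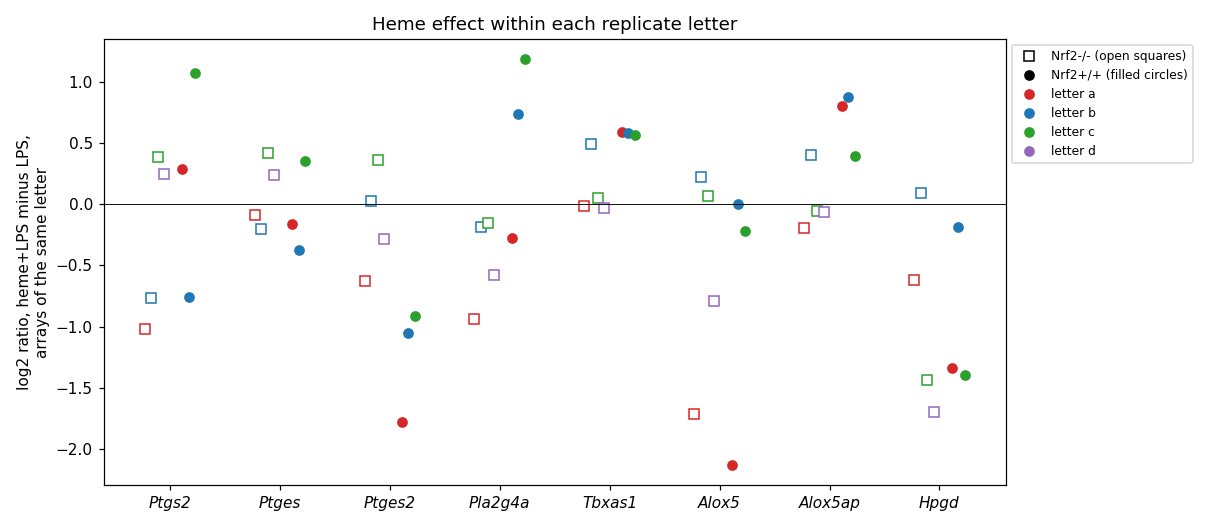
Heme effect within each replicate letter (vertical axis, log2 ratio of the heme+LPS array minus that of the LPS array with the same letter) for each gene, with open squares for Nrf2-/- and filled circles for Nrf2+/+ cells. Ptges2 is below 0 and Alox5ap above 0 in all 3 letters of Nrf2+/+ cells. The letter a values of Alox5, -1.71 and -2.13, are below its other letters, of which the lowest is d in Nrf2-/- cells at -0.79.

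Hpgd, the dehydrogenase that begins prostaglandin breakdown, was below the reference on every array. The Nrf2-/- heme+LPS arrays a to e had -1.82, -1.82, -2.71, -3.22 and -3.92, against -1.20, -1.91, -1.28 and -1.52 on Nrf2-/- LPS arrays a to d. On Nrf2+/+ heme+LPS arrays a to c it was -3.72, -1.60 and -2.19, against -2.38, -1.42 and -0.79 on Nrf2+/+ LPS arrays and -0.40, -0.45 and -0.39 on albumin arrays. All LPS-treated arrays lay below all albumin arrays, and the heme+LPS and LPS groups overlapped in both genotypes.

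For Hpgd, Nrf2+/+ heme+LPS stood at -2.09 ± 0.59 (limma adjusted p = 0.0155, 4.26-fold lower) against albumin, and without heme+LPS array a at -1.48 (adjusted p = 0.0769). The call was also lost in a fit of the compared groups alone (adjusted p = 0.061). LPS without heme differed from albumin by -1.12 ± 0.59 (adjusted p = 0.186). The heme effect was -1.22 ± 0.48 in Nrf2-/- cells (unadjusted p = 0.0239, adjusted p = 0.182) and -0.97 ± 0.59 in Nrf2+/+ cells (adjusted p = 0.381), and the effects differed by -0.25 ± 0.76 (adjusted p = 1). The genotypes differed by -0.20 ± 0.53 after heme-albumin and LPS (adjusted p = 0.943). Between heme+LPS and albumin, feature 16749 differed by -2.75 ± 0.69 (adjusted p = 0.0092 over all features, of which 23.7% were called) and feature 42080 by -1.44 ± 0.65 (adjusted p = 0.134), so the call rests on one of the 2 features. In the same order, the Nrf2+/+ heme effect was -1.67 and -0.27. The features had opposite signs for the difference between heme effects (0.27 and -0.76). The same held for the genotypes after heme-albumin and LPS (0.26 and -0.66), and none of these differences passed the test.

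The genes most like Hpgd over the 18 arrays were Primpol (Pearson's r = 0.915), Spg11 (0.912) and Fmo5 (0.912), again over arrays that share one reference. Primpol encodes a primase-polymerase and Fmo5 a flavin-containing monooxygenase. No other of the 8 genes besides Ptgs2 and Hpgd had an SD of 1 or more over the arrays, the lower bound for this comparison.

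Further genes of the same biochemistry were listed in 6 groups, 79 genes in all, of which 74 were measured. The lists were chosen with earlier results of these data known. Their shares beside those of all genes are therefore descriptions and not a test of the path. Acsl1, Akr1b3, Ggt1, Ltb4r2 and Oxer1 were not analysed here. In Nrf2+/+ cells LPS against albumin called 7 of the 74 as higher and 14 as lower, or 28.4%, close to the 28.6% of all genes. Heme-albumin before LPS called 4 as higher and 0 as lower relative to LPS in Nrf2-/- cells, or 5.41% against 6.77% of all genes. In Nrf2+/+ cells it called 10 as higher and 4 as lower, or 18.9% against 14.7% of all genes. Leaving out Nrf2-/- LPS array a or d reduced the Nrf2-/- count to 1 or 2. The heme effects differed between the genotypes in 6 of the 74, 1 higher and 5 lower in Nrf2-/- cells, or 8.11% against 0.947% of all genes. By limma the genotypes differed in 0 of 74 after LPS alone (3 at an unadjusted p under 0.05) and in 9 after heme-albumin and LPS, 2 higher and 7 lower in Nrf2-/- cells, or 12.2% against 5.29% of all genes. Medians over the 74 genes lay between -0.01 and 0.10 in these comparisons, against 0 over all genes.

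Genes of prostaglandin and leukotriene breakdown and transport held the largest of the heme effects among the listed genes. Relative to LPS, 4 of 11 rose and 0 fell with heme-albumin in Nrf2+/+ cells. For this and the lists that follow, the shares of all genes were 8.34% higher and 6.35% lower for heme-albumin in Nrf2+/+ cells, 4.1% and 2.67% for it in Nrf2-/- cells, and 12.3% and 16.3% for LPS against albumin. Ptgr1, a reductase that inactivates prostaglandin metabolites and leukotriene B4, averaged -0.47 ± 0.25 on Nrf2-/- heme+LPS arrays (n = 5) and -0.18 ± 0.07 on Nrf2-/- LPS arrays (n = 4). In Nrf2+/+ cells it averaged 3.00 ± 0.04 on Nrf2+/+ heme+LPS arrays and -0.20 ± 0.05 on Nrf2+/+ LPS arrays (SD, n = 3 each), a difference of 3.20 (limma adjusted p = 2.52e-09). The heme effects differed by -3.48 ± 0.16 (limma adjusted p = 5.42e-08).

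Abcc4, a pump that exports prostaglandins, averaged -0.56 ± 0.38 on Nrf2-/- heme+LPS arrays (n = 5) and -0.56 ± 0.27 on Nrf2-/- LPS arrays (n = 4). Its Nrf2+/+ means were 2.29 ± 0.72 on Nrf2+/+ heme+LPS arrays and -0.40 ± 0.26 on Nrf2+/+ LPS arrays (SD, n = 3 each), and the heme effects differed by -2.68 ± 0.40 (limma adjusted p = 0.00409). Abcc1, which exports leukotriene C4, had a heme effect that differed between the genotypes by -1.54 ± 0.27 (limma adjusted p = 0.0107). Among Nrf2-/- cells Abcc1 still rose by 0.67 ± 0.17 with heme-albumin (limma adjusted p = 0.0276), a call that was lost without any 1 of Nrf2-/- heme+LPS arrays a to d or Nrf2-/- LPS arrays a, c and d (adjusted p up to 0.08). It was also lost under quantile normalization, median centring, zeros as missing and the compared groups alone (adjusted p = 0.135, 0.0546, 0.0821 and 0.0855). Cbr3, a carbonyl reductase, rose by 2.76 ± 0.34 with heme-albumin in Nrf2+/+ cells (limma adjusted p = 6.76e-05), beside a difference of -1.88 ± 0.34 for LPS against albumin (limma adjusted p = 0.000737).

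Among phospholipases and genes of arachidonate release, 20 were measured, and with heme-albumin in Nrf2+/+ cells 3 rose and 1 fell. Pla2g7, which hydrolyses platelet-activating factor, averaged 2.85 ± 0.58 on Nrf2+/+ heme+LPS arrays and 0.20 ± 0.30 on Nrf2+/+ LPS arrays (SD, n = 3 each). Its heme effect differed between the genotypes by -3.10 ± 0.46 (limma adjusted p = 0.00409), a call lost with the probe of highest SD (adjusted p = 0.0767). Anxa1 encodes annexin A1, an inhibitor of phospholipase A2 activity, and it moved the other way. It averaged 0.57 ± 0.15 on Nrf2-/- heme+LPS arrays (n = 5) and 0.92 ± 0.10 on Nrf2-/- LPS arrays (n = 4). On Nrf2+/+ arrays it averaged -0.44 ± 0.19 after heme+LPS, 1.1 ± 0.23 after LPS and -0.49 ± 0.03 after albumin (SD, n = 3 each), and the heme effects differed by 1.19 ± 0.16 (limma adjusted p = 0.00225).

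With LPS against albumin, 1 of the 20 rose (Anxa1, by 1.59 ± 0.13, limma adjusted p = 6.16e-07) and 4 fell. The largest falls were those of Dagla, a diacylglycerol lipase, at -3.82 ± 1.0 (limma adjusted p = 0.00963), and of the secreted phospholipase Pla2g2e, at -1.61 ± 0.42 (limma adjusted p = 0.00961). Pla2g6, a calcium-independent phospholipase, was the 1 gene of this list called for heme-albumin in Nrf2-/- cells, at 1.31 ± 0.28 (limma adjusted p = 0.0102). Lysosomal Pla2g15 was lower in Nrf2-/- than in Nrf2+/+ cells after heme-albumin and LPS, at -1.0 ± 0.26 (limma adjusted p = 0.0365). That call was lost without any 1 of Nrf2+/+ heme+LPS arrays b and c or Nrf2-/- heme+LPS arrays a, d and e (adjusted p up to 0.171), with zeros as missing (adjusted p = 0.0815) and in the compared groups alone (adjusted p = 0.143).

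Of 7 other prostanoid synthases, 1 rose and 1 fell with heme-albumin in Nrf2+/+ cells. Hpgds, the prostaglandin D synthase of blood cells, averaged -2.92 ± 0.78 on Nrf2+/+ heme+LPS arrays and -0.76 ± 0.48 on Nrf2+/+ LPS arrays (SD, n = 3 each), a difference of -2.16 (limma adjusted p = 0.000482; 0.0837 in the compared groups alone). After heme-albumin and LPS, Hpgds stood 1.45 ± 0.30 higher in Nrf2-/- than in Nrf2+/+ cells (limma adjusted p = 0.0103), a call lost with zeros as missing (adjusted p = 0.0696) and in the compared groups alone (adjusted p = 0.16). Ptges3, a cytosolic prostaglandin E synthase that is also a chaperone partner, rose by 0.97 ± 0.23 with heme-albumin (limma adjusted p = 0.00894), and this call too was lost with zeros as missing (adjusted p = 0.0757) and in the compared groups alone (adjusted p = 0.167). Cbr1 and Prxl2b, both able to make prostaglandin F2alpha or its analogues, fell with LPS against albumin, by 0.85 and 0.98 on the log2 scale (limma adjusted p = 0.00138 and 0.00354).

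In the leukotriene branch, 12 further lipoxygenases and leukotriene enzymes were measured, and 1 rose with heme-albumin in Nrf2+/+ cells. That gene, Mgst2, which can make leukotriene C4, averaged 0.47 ± 0.56 on Nrf2-/- heme+LPS arrays (n = 5) and 1.77 ± 0.72 on Nrf2-/- LPS arrays (n = 4). The Nrf2+/+ means were 2.83 ± 0.56 on heme+LPS arrays and 1.11 ± 0.73 on LPS arrays (SD, n = 3 each), with an adjusted p of 0.0215 by limma. The heme effects differed by -3.02 ± 0.60 (limma adjusted p = 0.0281). Leaving out array b or c of either Nrf2+/+ group ended both calls (adjusted p up to 0.102), as did Nrf2-/- heme+LPS arrays c and d and Nrf2-/- LPS array d for the difference between heme effects. In the compared groups alone neither passed (adjusted p = 0.138 and 0.0813). With LPS against albumin 2 of the 12 were higher and 3 lower. Alox15 was called as higher, at 1.31 ± 0.32 (limma adjusted p = 0.00642), but it was listed at exactly 0 on 2 of 3 LPS arrays.

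Of 16 receptors measured, 1 rose and 2 fell with LPS against albumin in Nrf2+/+ cells. Fpr2, a receptor of formyl peptides, annexin A1 and lipoxin A4, stood 5.12 ± 1.14 higher (limma adjusted p = 0.00342). Pparg, a nuclear receptor for oxidised lipids, fell by 1.31 on the log2 scale (limma adjusted p = 0.0163), a call lost without Nrf2+/+ LPS array a (adjusted p = 0.0839). The leukotriene B4 receptor Ltb4r1 was called at -1.43 ± 0.48 (limma adjusted p = 0.0388), but without any 1 of the 6 arrays the adjusted p was between 0.0509 and 0.144. With heme-albumin, the prostacyclin receptor Ptgir rose by 1.22 ± 0.28 in Nrf2-/- cells (limma adjusted p = 0.0162) and by 1.95 ± 0.34 in Nrf2+/+ cells (limma adjusted p = 0.00111). Without Nrf2-/- LPS array a or c the Ptgir call in Nrf2-/- cells was lost (adjusted p = 0.0503 and 0.0529), and in the compared groups alone that in Nrf2+/+ cells was lost (adjusted p = 0.108). The cysteinyl leukotriene receptor Cysltr1 was called at -1.85 ± 0.59 in Nrf2+/+ cells (limma adjusted p = 0.0495), and not without heme+LPS array a (-1.07, adjusted p = 0.204) or without LPS array a, b or c, nor under quantile normalization, zeros as missing, the median over probes or the compared groups alone (adjusted p = 0.0553, 0.114, 0.0504 and 0.288).

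Genes listed for the return of arachidonic acid and other fatty acids to phospholipid numbered 8, of which 2 rose and 1 fell with LPS against albumin. Acsl5 rose by 1.03 ± 0.15 (limma adjusted p = 0.000157) and Acsl3 stood at -3.19 ± 0.68 (limma adjusted p = 0.00259), both being enzymes that activate fatty acids. Acsl4, which prefers arachidonic acid, was called at 0.66 ± 0.20 (limma adjusted p = 0.0214), a call lost without any 1 of the albumin arrays or of Nrf2+/+ LPS arrays b and c (adjusted p up to 0.0691), and with letter a left out of all LPS-treated groups (adjusted p = 0.054). Lpcat1, an acyltransferase of phosphatidylcholine, was the 1 gene of this list called for heme-albumin in Nrf2+/+ cells, at -2.11 ± 0.38 (limma adjusted p = 0.00135). Among Nrf2-/- arrays the related Lpcat2 was called at 1.0 ± 0.23 (limma adjusted p = 0.016), and not without Nrf2-/- LPS array a or d (adjusted p = 0.0599 and 0.0527), with zeros as missing or in the compared groups alone (adjusted p = 0.0774 and 0.124).

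Marker lists of macrophages and of cells that marrow cultures can also hold were read on the same arrays. Since the table holds ratios to a macrophage reference, they cannot show whether a cell type is present. Of 8 macrophage markers 1 fell with heme-albumin in Nrf2-/- cells and 2 in Nrf2+/+ cells, with group means of single markers from -3.17 to 1.85 on Nrf2+/+ heme+LPS arrays. Of 9 neutrophil markers 1 rose with heme-albumin in Nrf2-/- cells and 2 in Nrf2+/+ cells, and 1 was lower in Nrf2-/- than in Nrf2+/+ cells after heme-albumin and LPS. The neutrophil means ran from -0.28 to 2.40 on Nrf2-/- heme+LPS arrays and from 0.05 to 3.50 on Nrf2+/+ heme+LPS arrays, against -0.13 to 1.47 on Nrf2+/+ LPS arrays. Of the other lists, 9 mast cell and basophil, 4 B cell, 6 T and NK cell and 6 stromal markers were measured. With heme-albumin 1 stromal marker rose in Nrf2-/- cells, and in Nrf2+/+ cells 1 stromal marker rose while 1 stromal and 1 mast cell marker fell; between the genotypes after heme-albumin and LPS, 1 macrophage and 1 mast cell marker were higher in Nrf2-/- cells. With LPS against albumin all 6 lists held calls, with 2 macrophage, 1 neutrophil, 1 mast cell, 2 T and NK cell and 2 stromal markers higher and 1 neutrophil, 1 mast cell and 1 B cell marker lower. The shares of all genes called stand above and apply here too. Neutrophils express Alox5 and Alox5ap too, and the part of these markers in the results was not tested. In RNA of whole cultures, fewer cells of a type and less RNA per cell cannot be told apart.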

How the data were processed

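Agilent two-colour arrays of 18 macrophage samples were analysed. The authors deposited log10 ratios of Cy5 (sample) over Cy3 (untreated reference) per feature, made with Agilent Feature Extraction 10.5.1.1 per the submitters' processing notes. The log10 scale was inferred from the values, and the background and dye correction are not stated. The deposited values were converted to log2 ratios and averaged per gene symbol (33026 features with 1 symbol, 11371 without).

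All arrays entered 1 limma 3.58.1 fit (lmFit and eBayes, R 4.3.3) with 5 group means and no block for the replicate letter. Benjamini-Hochberg adjustment ran over all genes, with calls at 0.05. The fit was also run on simulated data with independent noise per array and no correlation between same-letter arrays. Only the bias of its differences was held to a limit, so that run did not check the calls given here. Replicates are independent per the series design, and their letters pair samples by the data rule only: same-letter deviations correlated at 0.216 to 0.586 between Nrf2-/- heme+LPS and Nrf2-/- LPS, 0.196 to 0.579 between the LPS groups and 0.228 to 0.533 between the heme+LPS groups, but at -0.0226 to 0.476 in the other comparisons.

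All 9 genes were named, and of the listed pathway genes the 4 largest called rises and falls per comparison plus every called gene of a list with at most 3. Genes and lists were chosen with earlier results of these data known. Genes of like pattern were ranked among those at exactly 0 on at most 4 arrays. Figures used matplotlib 3.10.9 and pandas 2.3.3.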

Additional observations from a re-analysis of the deposited data

Results flagged for a closer look

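One value stood apart from its group. Tbxas1 on Nrf2-/- heme+LPS array a had a log2 ratio of -0.75, while the other 4 arrays of that group lay between -0.43 and -0.31. Its gap to the nearest array was 0.718 of the range of the group. In all 16 gene and group combinations of 4 or 5 arrays were examined, of which chance picks out about 1 in 20. On the same array Alox5ap was also the lowest of its group at -0.79, and 48.8% of features were listed at exactly 0, the highest share of the 18 arrays. Tbxas1 was lowest on array a in Nrf2+/+ heme+LPS (-0.19) and Nrf2+/+ LPS (-0.79) as well. In Nrf2-/- LPS it was lowest on array b at -0.93, with array a at -0.73. The part of the zeros and of the letter in the Tbxas1 value was not tested.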

How the results depend on the processing

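Each log2 difference of the 8 genes was recomputed under 12 other settings and without single arrays. Of 656 values under other settings, 591 kept their direction and side of the threshold, 33 changed sign, 19 passed the test only there and 13 lost it; of 456 values with 1 array left out these counts were 398, 32, 6 and 20. All sign changes were in differences that had not passed the test. Their cause was not tested. For the further pathway genes and counts, 0 changed sign.

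With values of exactly 0 taken as missing, heme-albumin in Nrf2+/+ cells called 1 of the 8 genes, with the arrays of the compared groups alone 0, and without the LPS-treated arrays lettered a 4, against 2 reported. With array weights LPS against albumin called 7 and the difference between heme effects 2, against 4 and 0. Leaving out 1 array gave 3 to 6 genes for heme+LPS against albumin, 1 to 3 for the genotypes after heme-albumin and LPS and 0 to 1 for the difference between heme effects.

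The replicate block changed the calls of Tbxas1 in Nrf2+/+ cells (LPS against albumin -0.49, adjusted p = 0.0267; heme effect 0.58, adjusted p = 0.0198) and of Lpcat2 (0.94, adjusted p = 0.0533) and Mgst2 (difference between heme effects -3.03, adjusted p = 0.0562), beside Ptges2 and Tbxas1 between the genotypes given above, and no other call. It turned the sign of the difference between heme effects for Hpgd (0.056) and, for the genotypes after heme-albumin and LPS, of Ptgs2 (-0.32), Ptges (-0.11), Alox5 (0.020) and Hpgd (0.25). A block over LPS-treated arrays only, a setting chosen after seeing the data, cannot give LPS against albumin. For the other results named here its log2 differences were the same, but its limma adjusted p were not. They were 0.0195 for the Nrf2+/+ heme effect on Tbxas1, 0.1085 for Lpcat2 and 0.1051 for Mgst2. Between the genotypes after heme-albumin and LPS they were 0.158 for Ptges2 and 0.0318 for Tbxas1. This setting also ended the calls of Abcc4 for the difference between heme effects (adjusted p = 0.0602) and of Pla2g15 between the genotypes (adjusted p = 0.0658).

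Quantile normalization turned Ptges to 0.23 for heme-albumin in Nrf2+/+ cells and to -0.0055 for the difference between heme effects, Hpgd to -0.048 between the genotypes after LPS, and Ptgs2 to -0.26 and Ptges to -0.11 between the genotypes after heme-albumin and LPS. Centring on the median turned Alox5ap to -0.038 for heme-albumin in Nrf2-/- cells. The probe with the highest SD gave Ptgs2 0.076 for heme-albumin in Nrf2-/- cells, Hpgd 0.27 for the difference between heme effects and -0.0025 between the genotypes after LPS, and Ptgs2 -0.18 and Hpgd 0.26 between the genotypes after heme-albumin and LPS. Without the LPS-treated arrays lettered a, heme-albumin in Nrf2-/- cells gave Ptgs2 0.22 and Ptges2 0.067, the difference between heme effects Ptgs2 0.059 and Alox5 -0.21, and the genotypes after LPS Ptges 0.0013 and Hpgd -0.47. Array weights gave Ptges 0.045 for heme-albumin in Nrf2+/+ cells, Ptgs2 0.093 and Ptges2 0.11 for it in Nrf2-/- cells, Alox5 -0.073 for the difference, Hpgd -0.067 between the genotypes after LPS and Ptgs2 -0.21 after heme-albumin and LPS.

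Over left-out arrays, heme-albumin in Nrf2+/+ cells ranged from -0.20 to 0.090 for Ptges and -0.12 to 0.45 for Ptgs2, and in Nrf2-/- cells from -0.29 to 0.37 for Ptgs2, -0.16 to 0.10 for Ptges2 and -0.063 to 0.058 for Alox5ap. The difference between heme effects ranged from -0.42 to 0.56 for Alox5, -0.86 to 0.20 for Hpgd and -0.49 to 0.17 for Ptgs2. Between the genotypes after heme-albumin and LPS the ranges were -0.12 to 0.53 for Ptgs2, -0.058 to 0.21 for Ptges, -0.71 to 0.27 for Alox5 and -0.80 to 0.25 for Hpgd, and after LPS -0.25 to 0.017 for Ptges and -0.37 to 0.42 for Hpgd.

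Over all genes, 3303 were called for heme-albumin in Nrf2+/+ cells, against 1545 with the compared groups alone, 2177 with zeros as missing and 5340 with array weights. In Nrf2-/- cells these counts were 1523, 752, 749 and 1772, for the difference between heme effects 213, 116, 128 and 879, and for the genotypes after heme-albumin and LPS 1189, 317, 450 and 2124. The block over LPS-treated arrays called 141 for the difference, and without the arrays lettered a the genotypes differed in 6 genes after LPS, against 1, and 0 with zeros as missing, the compared groups alone or the replicate block.

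Among the 74 pathway genes, counts moved by over 1.5 times for heme-albumin in Nrf2-/- cells (2, 2, 7 and 8 with zeros as missing, the compared groups alone, without letter a and with weights, 1 without Nrf2-/- LPS array a and 2 without array d, against 4), for heme-albumin in Nrf2+/+ cells (7 with the compared groups alone, against 14), for the genotypes after heme-albumin and LPS (5 with the compared groups alone and 15 without letter a, against 9) and for LPS against albumin (32 with weights, against 21).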

Other observations

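Among the 74 further genes of arachidonic acid metabolism, 15 stood higher and 12 lower on Nrf2+/+ heme+LPS arrays than on albumin arrays (limma, adjusted p under 0.05). This is 36.5% of them, against 27.3% of all genes (12.9% higher and 14.4% lower). The list was chosen with earlier results of these data known, so the share is a description and not a test. Fpr2, a receptor of formyl peptides and lipoxin A4, was higher by 4.48 ± 1.14 on the log2 scale (limma adjusted p = 0.0088). The exporters Abcc1 and Abcc4 were higher by 3.08 ± 0.21 and 2.13 ± 0.31 (limma adjusted p = 1.97e-07 and 0.000146). Pla2g7, which hydrolyses platelet-activating factor, was higher by 2.95 ± 0.36, and the reductase Ptgr1 by 2.80 ± 0.12 (limma adjusted p = 3.56e-05 and 4.46e-09).

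On the lower side, Hpgds, the prostaglandin D synthase of blood cells, stood at -2.52 ± 0.34, and the secreted phospholipase Pla2g2e at -2.29 ± 0.42 (limma adjusted p = 8.1e-05 and 0.000956). The diacylglycerol lipase Dagla stood at -3.65 ± 1.0 (limma adjusted p = 0.0133), a call lost without Nrf2+/+ heme+LPS array c (-2.96, adjusted p = 0.0647). The leukotriene B4 receptor Ltb4r1 was called at -1.58 ± 0.48 (limma adjusted p = 0.0248), and not without any 1 albumin array or without Nrf2+/+ heme+LPS array c, where it was -0.81 (adjusted p = 0.0687), nor with zeros as missing or the compared groups alone (adjusted p = 0.115 and 0.201).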
